A study of Mus musculus with 6 samples.

Results

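Cellular senescence is a lasting arrest of the cell cycle, and p53 is the transcription factor that most directly couples DNA damage and other stress to that arrest. The genes described here are 10 senescence and p53 response genes, taken from the liver count table by symbol: the cyclin-dependent kinase (CDK) inhibitors Cdkn1a, Cdkn2a, Cdkn2b and Cdkn2c, the p53 gene Trp53 and its regulator Mdm2, the stress targets Ccng1, Gadd45a and Gdf15, and the lamin gene Lmnb1. They were 10 of 32212 rows of the table, each symbol occurred once, and 8 of the 10 had enough counts to be tested among 13867 genes. The livers came from male mice on the C57BL/6 background, 2 yr of age and kept on normal chow, of which 3 were wild type (WT) and 3 were CgA-KO. CgA-KO mice carry a knockout of Chga, the gene of the prohormone chromogranin A. RNA was selected by its poly(A) tail from pieces of whole liver. Each library came from another mouse, as the study's methods state.

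p53 protein is held at a low level by the ubiquitin ligase MDM2 and accumulates under stress mainly because it is no longer degraded, so the mRNA of Trp53 is not a direct reading of p53 activity. Active p53 binds DNA and raises the transcription of Cdkn1a, whose product p21 blocks CDKs, and of Mdm2, Ccng1 and Gadd45a. The INK4 inhibitors encoded by Cdkn2a, Cdkn2b and Cdkn2c act beside this route, by keeping CDK4 and CDK6 from cyclin D so that RB stays active, while loss of lamin B1 from the nuclear envelope is a widely used mark of senescent cells. In liver, hepatocytes rarely divide, and macrophages, endothelium and other cells contribute to every bulk measurement.

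Cdkn1a and Lmnb1 were higher in all CgA-KO livers than in any WT liver, about 10.5-fold and 2.49-fold by group means, and these were the called genes among the 8 tested. Trp53 had a higher mean in CgA-KO livers but its groups overlapped, and Mdm2, Ccng1, Gadd45a, Gdf15 and Cdkn2c did not pass the test. The CDK inhibitor genes Cdkn2a and Cdkn2b were too low to be tested. They had at most 10 counts in any liver, apart from 92 counts of Cdkn2a in CgA-KO replicate 2. The count of 2 called genes of 8 was set against the whole table, in which edgeR's quasi-likelihood test called 12.4% of genes at an adjusted p under 0.05, 8.6% as higher and 3.84% as lower in CgA-KO. No gene of the 10 was called lower by edgeR, DESeq2 or limma-voom, and 0 were lower at an unadjusted p under 0.05. Over all genes tested, 29.1% had an unadjusted edgeR p under 0.05 in either direction, and DESeq2 called 18.8%. The median log2 fold change of the 8 genes was 0.27, beside -0.01 over all genes tested. The fold change was above 0 for 6 of the 8, beside 49.4% of all genes tested.

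Total counts were 10558616 to 31087453 per library in WT and 19223595 to 28672817 in CgA-KO, so 3 counts, taken as the floor, corresponded to 0.0951 to 0.269 CPM. CPM are counts scaled to a common library size, here with TMM factors (a trimmed mean of ratios between libraries), and fold changes are log2 of CgA-KO over WT with the standard error (SE) of the fit. Scaling by library size alone, with no TMM factor, moved the median over all genes tested to 0.26 on the log2 scale and the share of calls that were higher from 69.1% to 86.6%. WT replicate 1 was the shallowest library. Chga had 0 counts in all 6 livers, so it could not check the genotype labels. Hepatocyte markers were abundant in every library, and Alb, encoding albumin, had a mean of 51653 CPM in the WT livers and 44039 CPM in the CgA-KO livers. The summed levels of Kupffer cell, T and NK cell, neutrophil and monocyte markers were higher in each CgA-KO liver than in any WT liver, with values given beside the results below. In bulk liver, a change in how many cells of a type are present and a change in RNA per cell cannot be told apart.

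The region just before the start of Cdkn1a is shown because this gene moved most among the 10 and because p53 is known to act there. The gene (ENSMUSG00000023067) lies on the plus strand at chr17:29090976-29100727 in GRCm38. The 250 bases before its upstream RefSeq start, at chr17:29090729-29090978 on the plus strand of GRCm38.p6, read as follows, with capitals on each 10-base match to the p53 half-site motif.
Cdkn1a, upstream start: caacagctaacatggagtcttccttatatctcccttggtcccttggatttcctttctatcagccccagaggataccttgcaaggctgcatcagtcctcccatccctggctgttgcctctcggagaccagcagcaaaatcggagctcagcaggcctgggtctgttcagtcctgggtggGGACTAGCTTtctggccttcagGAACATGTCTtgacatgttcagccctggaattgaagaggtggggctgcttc
The matches stood 12 bases apart, and the first of them began 73 bases before this start. The 10 bases directly after the second match differed from the motif at 1 position, so they are in lower case. Cdkn1a has another RefSeq start 2790 bases downstream, and the 250 bases before that start held 0 matches.

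For comparison, the single matches before Trp53, Mdm2 and Ccng1 are shown with 20 bases on each side, each on the strand of its gene, to set their letters beside those of Cdkn1a.
Trp53, chr11:69580264-69580313, plus strand: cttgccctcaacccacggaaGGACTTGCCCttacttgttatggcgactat
Mdm2, chr10:117710915-117710964, minus strand: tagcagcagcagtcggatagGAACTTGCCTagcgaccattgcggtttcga
Ccng1, chr11:40755442-40755491, minus strand: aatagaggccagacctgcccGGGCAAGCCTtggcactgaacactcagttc
These matches began 75, 186 and 185 bases before their starts. Gadd45a, the other gene with a match, had 1 that began 40 bases before its RefSeq start, and it is not shown because those bases lie within the first exon annotated by GENCODE. Sequences are from RefSeq (GRCm38.p6), in which 9 of the 10 genes had at least 1 promoter window and 5 of those had a half-site match. Counted by window, 5 of their 13 windows had a match. A half-site match was present in 7.13% of 32851 windows of 250 bases genome-wide, and a pair of matches 0 to 13 bases apart, as before Cdkn1a, in 0.0639% of them. The motif was searched by its name as the p53 half-site, whose ambiguous letters make it read alike on both strands. A match is a description of letters, and binding was not measured in these livers.

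Among the CDK inhibitors, Cdkn1a measured 5.46, 1.19 and 3.22 CPM in WT replicates 1 to 3 and 40.7, 23.1 and 39.5 CPM in CgA-KO replicates 1 to 3. The lowest CgA-KO liver was thus several times above the highest WT liver, and the groups did not overlap. The means were 3.29 ± 2.14 CPM in the WT livers and 34.4 ± 9.82 CPM in the CgA-KO livers (SD, n = 3 per genotype). edgeR gave a log2 fold change of 3.44 (SE 0.484, 95% interval 2.35 to 4.54) with an adjusted p of 0.00550. AC167363.2 is annotated on the opposite strand across 273 exonic bases of Cdkn1a and was not analysed here. The summed Kupffer cell markers moved with it, from 105 to 244 CPM in WT to 1137 to 1545 CPM in CgA-KO, and their part in its level was not tested. The values rested on 28 to 76 counts per WT library and 729 to 881 per CgA-KO library. Leaving out WT replicate 3 kept the log2 fold change at 3.45 with an adjusted p of 0.0523, and the 5 other fits that left out 1 liver retained the call. A single-gene exact permutation test on CPM could give no two-sided p below 0.1 for 3 against 3 livers, which was the value for Cdkn1a.

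Cdkn2a encodes both p16Ink4a, an inhibitor of CDK4 and CDK6, and p19Arf, an inhibitor of MDM2, and the gene-level count does not separate them. The gene (chr4:89274471-89294653, minus strand) had 0, 8 and 5 counts in the WT livers and 1, 92 and 7 counts in the CgA-KO livers. Its levels were therefore 0, 0.340 and 0.212 CPM in the WT livers and 0.0464, 2.92 and 0.314 CPM in the CgA-KO livers. CgA-KO replicate 2 held 92 of the 113 counts, and the other CgA-KO livers lay within the range of the WT livers. The groups overlapped and the exact two-sided permutation p was 0.5. In WT replicate 1 the count of 0 allows a level of up to 0.269 CPM, a limit that covers counting error only.

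Cdkn2b, the neighbouring inhibitor whose product is p15Ink4b, lies 11646 bases from Cdkn2a at chr4:89306299-89311039. It measured 0.0896, 0.298 and 0.212 CPM in the WT livers and 0.232, 0.317 and 0.134 CPM in the CgA-KO livers, from 31 counts over the 6 livers. The ranges overlapped, and the exact permutation p was 0.7. Neither Cdkn2a nor Cdkn2b passed the filter on low counts. In an edgeR fit with no such filter the adjusted p was 0.393 for Cdkn2a and 0.943 for Cdkn2b.

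Cdkn2c, which encodes p18Ink4c, was at 4.03, 3.96 and 2.41 CPM in the WT livers and at 2.18, 3.90 and 3.85 CPM in the CgA-KO livers. One liver of each genotype sat below the other livers of its group, and the groups overlapped. The log2 fold change was -0.06 (SE 0.359, 95% interval -0.87 to 0.76; adjusted p = 0.939 by edgeR), and its sign turned positive when libraries were scaled by size alone. The interval leaves room for a difference of a little under 2-fold in either direction.

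**Figure D1:**
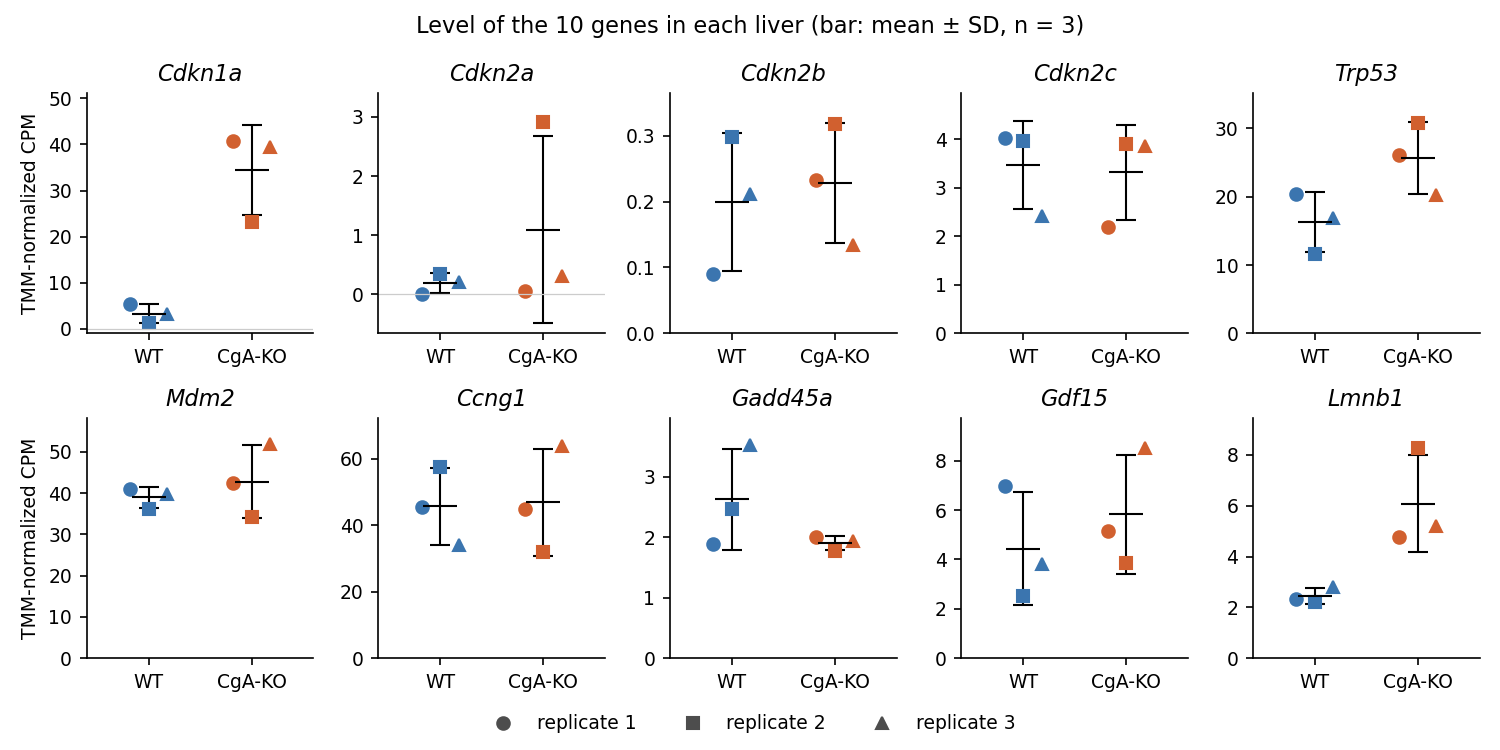
TMM-normalized CPM (vertical axes, each with its own scale) of the 10 senescence and p53 response genes in the 3 WT and 3 CgA-KO livers; each marker is 1 liver, its shape gives the replicate number, and bars show mean ± SD. Cdkn1a and Lmnb1 are the genes whose CgA-KO livers all lie above every WT liver, and the high Cdkn2a mean in CgA-KO comes from replicate 2 at 2.92 CPM.

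Trp53 (chr11:69580359-69591873, plus strand) measured 20.4, 11.7 and 16.9 CPM in the WT livers and 26.0, 30.7 and 20.3 CPM in the CgA-KO livers. The groups met at their edges, since WT replicate 1 and CgA-KO replicate 3 were almost equal. Means were 16.3 ± 4.41 and 25.7 ± 5.24 CPM (SD, n = 3). The log2 fold change of 0.66 (SE 0.249, 95% interval 0.10 to 1.22) had an unadjusted p of 0.0267 and an edgeR adjusted p of 0.118, so the gene was not called. None of the other normalizations, tools or left-out livers called it, with adjusted p between 0.0609 and 0.278 over the alternatives.

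Mdm2, both a p53 target and the ligase that removes p53, was at 41.0, 36.2 and 39.9 CPM in the WT livers and 42.3, 34.1 and 52.0 CPM in the CgA-KO livers. The lowest and the highest values both came from CgA-KO livers. The log2 fold change was 0.13 (SE 0.192, 95% interval -0.30 to 0.57; adjusted p = 0.695 by edgeR), from 458 to 1159 counts per library. This interval lies wholly below that of Cdkn1a.

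Ccng1, encoding cyclin G1, a p53 target that recruits a phosphatase to MDM2, was the most abundant of the 10 genes per kilobase of exon. It was at 45.6, 57.4 and 34.0 CPM in the WT livers and 44.9, 31.9 and 64.0 CPM in the CgA-KO livers. CgA-KO replicates 2 and 3 bracketed all other livers. The log2 fold change was 0.04 (SE 0.286, 95% interval -0.61 to 0.68; adjusted p = 0.948 by edgeR).

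Gadd45a, whose product acts in growth arrest and DNA repair after damage, was at 1.88, 2.47 and 3.52 CPM in the WT livers and 2.00, 1.78 and 1.93 CPM in the CgA-KO livers. WT replicates 2 and 3 were the highest livers, while WT replicate 1 lay among the CgA-KO livers. The log2 fold change was -0.48 (SE 0.353, 95% interval -1.28 to 0.32; adjusted p = 0.410 by edgeR). The transcript E230016M11Rik is annotated on the opposite strand across 859 exonic bases of Gadd45a, and the strand setting of the quantification is not given in the sources used here. E230016M11Rik itself averaged 2.47 CPM in the WT livers and 0.888 CPM in the CgA-KO livers (log2 fold change -1.49, adjusted p = 0.0595 by edgeR), so the Gadd45a counts are uncertain to the extent that reads were shared.

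Gdf15 encodes a circulating stress hormone that is induced by p53 and also by the integrated stress response. It was at 6.99, 2.51 and 3.81 CPM in the WT livers and 5.15, 3.84 and 8.52 CPM in the CgA-KO livers. WT replicate 1 was second only to CgA-KO replicate 3, and the groups overlapped. The log2 fold change was 0.42 (SE 0.434, 95% interval -0.57 to 1.4; adjusted p = 0.573 by edgeR).

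Lmnb1, which encodes lamin B1 of the nuclear lamina, lies at chr18:56707813-56753424. It was at 2.33, 2.21 and 2.80 CPM in the WT livers and 4.78, 8.28 and 5.20 CPM in the CgA-KO livers. All CgA-KO livers were above all WT livers, with CgA-KO replicate 2 the highest. The means of 2.45 ± 0.309 and 6.09 ± 1.91 CPM (SD, n = 3) gave a log2 fold change of 1.31 (SE 0.314, 95% interval 0.60 to 2.02) with an edgeR adjusted p of 0.0285. The call was lost on leaving out WT replicate 2 (adjusted p = 0.0858), WT replicate 3 (0.0941), CgA-KO replicate 1 (0.0526) or CgA-KO replicate 2 (0.0809), while the log2 fold change stayed between 1.06 and 1.49. Cdkn1a and Lmnb1 were the 2 genes of the 8 tested whose groups did not overlap, both higher in CgA-KO. Over all genes tested 33.6% did not overlap, 19% because CgA-KO was higher and 14.6% because it was lower.

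**Figure D2:**
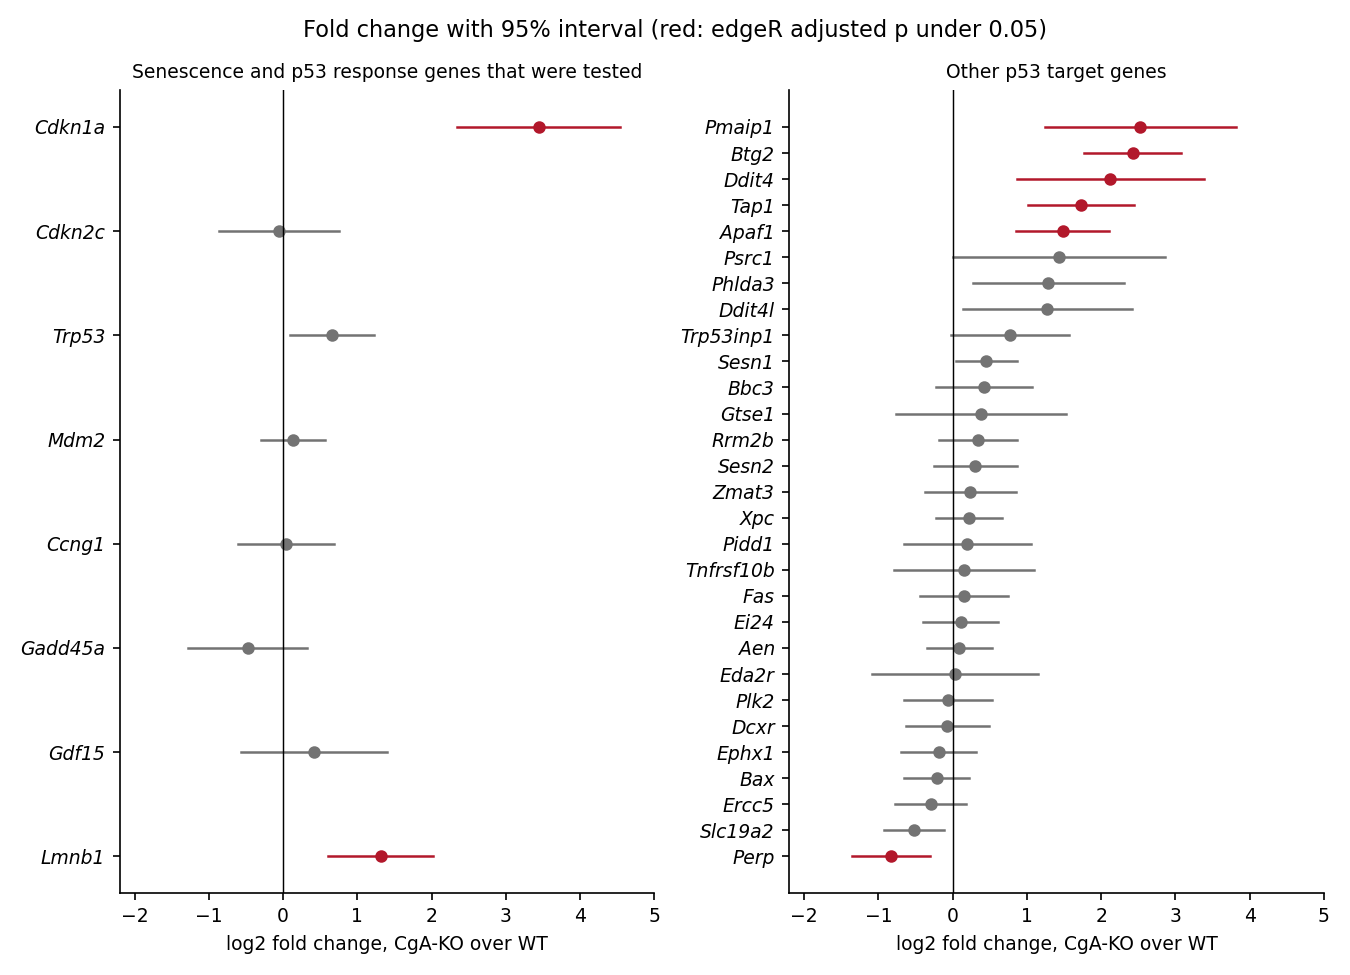
Log2 fold change, CgA-KO over WT (horizontal axes), with its 95% interval for the 8 tested genes (left) and for 29 tested genes of the list of other p53 targets (right); red marks an edgeR adjusted p under 0.05. The interval of Cdkn1a, 2.35 to 4.54, lies to the right of those of Mdm2, Ccng1, Gadd45a and Gdf15, which all include 0.

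Expressed per kilobase of exon, which allows levels of different genes to be compared, the order in WT livers was led by Ccng1 at 13 CPM per kb, Mdm2 at 7.68 and Trp53 at 4.04. Cdkn1a stood at rank 7 with 0.926 CPM per kb in WT and at rank 2 with 9.69 in CgA-KO. Lmnb1 moved from rank 8, at 0.826 CPM per kb, to rank 6, at 2.05. Cdkn2a and Cdkn2b held ranks 9 and 10 in both genotypes. Exon length was the union over annotated transcripts, so isoform use can shift these levels.

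The other p53 targets among the 10 gave an internal reference for Cdkn1a that needs no library scaling. Counts of Cdkn1a per count of Mdm2 were 0.133, 0.0329 and 0.0807 in WT and 0.962, 0.678 and 0.760 in CgA-KO. Per count of Ccng1 they were 0.120, 0.0207 and 0.0946 in WT and 0.907, 0.725 and 0.617 in CgA-KO. By counts, Cdkn1a thus stayed far below both targets in WT livers and came close to them in CgA-KO livers. Counts also depend on exon length. Per kilobase of exon, Cdkn1a in CgA-KO was at 9.69 CPM per kb, above Mdm2 at 8.42 and below Ccng1 at 13.4. Per count of Gadd45a the ratio was 0.483 to 2.90 in WT and 13 to 20.5 in CgA-KO. Per count of Gdf15 it was 0.475 to 0.844 in WT and 4.64 to 7.90 in CgA-KO. The mean log2 ratio differed by 3.48, 3.58, 4.02 and 3.15 for Mdm2, Ccng1, Gadd45a and Gdf15, and no ratio overlapped between genotypes. The exact two-sided permutation p was 0.1 for each of the 4 ratios, the smallest that 3 against 3 livers allow, and 0.1 after Benjamini-Hochberg adjustment. All 4 ratios share Cdkn1a, whose own groups did not overlap, and none of the other 4 genes was called. Their separation therefore largely restates the Cdkn1a result and is not separate evidence. A ratio shows unequal change and does not say which gene moved.

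**Figure D3:**
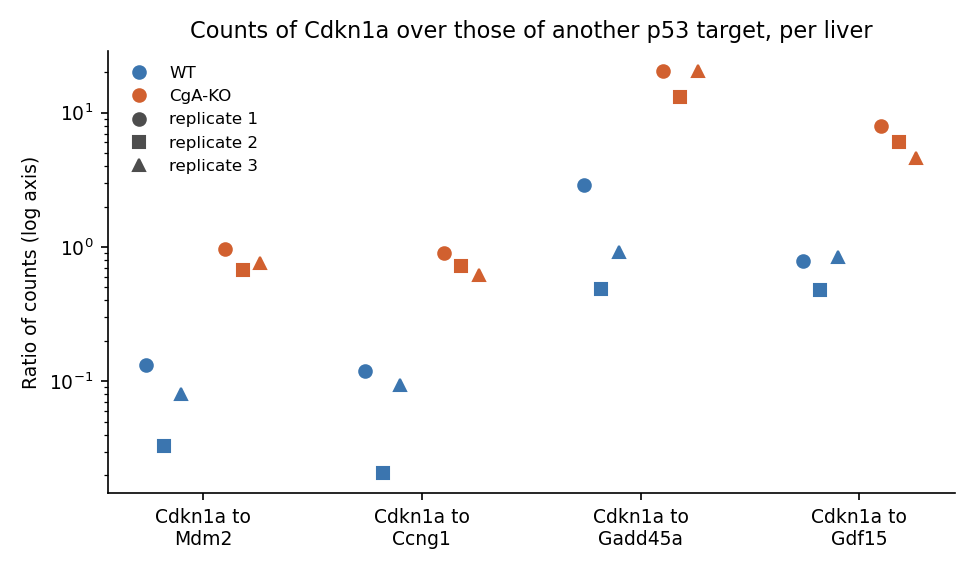
Counts of Cdkn1a divided by counts of Mdm2, Ccng1, Gadd45a or Gdf15 (log vertical axis) in each WT and CgA-KO liver; colour gives genotype and shape the replicate number. For each of the 4 genes the CgA-KO livers lie above every WT liver, from 0.617 to 0.962 against 0.0207 to 0.133 for Mdm2 and Ccng1. This largely follows from Cdkn1a, which all 4 ratios share.

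Genes outside the 10 were taken from lists of the same pathways. In the list of other p53 targets, edgeR called 5 of 29 tested genes higher and 1 lower, beside 8.6% and 3.84% of all genes tested. The log2 fold change was above 0 for 22 of the 29 and below 0 for 7, with a median of 0.24. Btg2, an antiproliferative p53 target, measured 8.15, 5.02 and 4.15 CPM in the WT livers and 29.2, 37.4 and 25.0 CPM in the CgA-KO livers (log2 fold change 2.42, SE 0.288, adjusted p = 0.00355 by edgeR), and it was called in every fit that left out 1 liver. Pmaip1, encoding the pro-apoptotic protein NOXA, went from a mean of 1.17 to 6.36 CPM (2.53, SE 0.567, adjusted p = 0.0230 by edgeR), with the call lost on omission of WT replicate 2 or 3 or CgA-KO replicate 1 or 2. Ddit4, encoding REDD1, an inhibitor of mTORC1, went from 2.87 to 12.3 CPM (2.12, SE 0.556, adjusted p = 0.0396 by edgeR), with 24.6 CPM in CgA-KO replicate 2 against 6.5 and 5.83 in the other CgA-KO livers. Without CgA-KO replicate 2 its log2 fold change was 1.15, and the call was lost on omission of any liver but CgA-KO replicate 3. Its call was also lost with limma-voom, with a replicate block, and with a filter of at least 1 count in total. Apaf1, of the apoptosome, and Tap1, a peptide transporter of antigen presentation, made up the rest of the genes called higher. Perp, a p53 target of cell junctions, fell from 106 to 59.8 CPM (-0.83, SE 0.230, adjusted p = 0.0477 by edgeR). Perp lost its call without any 1 of 5 livers and under scaling by library size alone or by upper-quartile factors. Its call was also lost with at least 10 counts required in every library and with a replicate block. The 6 calls of this list became 2 or 1 on omission of WT replicate 2 or 3, and 3 on omission of CgA-KO replicate 1 or 2. The list holds genes that immune and other cells also express, and its summed level overlapped between genotypes, at 868 to 1020 CPM in the WT livers and 870 to 1075 CPM in the CgA-KO livers.

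Upstream of p53, none of the 13 genes of the list of p53 regulators and checkpoint kinases was called by edgeR, DESeq2 or limma-voom. Of these 13, 1 had an unadjusted p under 0.05, beside 29.1% of all genes tested. Their median log2 fold change was 0.05. The smallest p belonged to the ribosomal protein genes Rpl5 (50.0 CPM in WT and 32.9 in CgA-KO, adjusted p = 0.0801 by edgeR) and Rpl11 (362 and 243 CPM, adjusted p = 0.237 by edgeR), whose products can bind and inhibit MDM2. Of 3 tested genes on the list of other CDK inhibitors none was called by any of these tools and 0 had an unadjusted p under 0.05. Cdkn1b, encoding p27, was at 27.7 ± 2.81 and 35.2 ± 2.63 CPM (adjusted p = 0.200 by edgeR) and Cdkn2d, encoding p19Ink4d, had a log2 fold change of 0.77 (adjusted p = 0.304 by edgeR).

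The paralogs of Gadd45a and Ccng1 did not pass edgeR's test either, although 2 of the 3 had an unadjusted p under 0.05, beside 29.1% of all genes tested. DESeq2 called 1 of them, beside 18.8% of all genes, and limma-voom called 0. Gadd45g, a growth arrest gene that is also induced by cytokines, was at 4.11 ± 2.68 CPM in the WT livers and 24.0 ± 20.9 CPM in the CgA-KO livers, with 47.7 CPM in CgA-KO replicate 2 (adjusted p = 0.0553 by edgeR). Ccng2, encoding cyclin G2, had a log2 fold change of 0.51 (adjusted p = 0.108 by edgeR). For Gdf15, the list of ATF4 and CHOP targets gave its other known input, the integrated stress response. No gene of the 10 on that list was called by edgeR or limma-voom. DESeq2 called 1 and 1 had an unadjusted p under 0.05, beside 18.8% and 29.1% of all genes. Atf3 had a log2 fold change of 1.70 (adjusted p = 0.0595 by edgeR) and Trib3 of 0.98 (adjusted p = 0.181 by edgeR).

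Downstream of the CDK inhibitors, edgeR called 2 of 14 genes of the RB, E2F and G1 cyclin list higher, beside 8.6% of all genes tested. None was called lower by edgeR, DESeq2 or limma-voom, although 2 were lower at an unadjusted p under 0.05. Ccnd2, encoding cyclin D2, went from 9.47 ± 3.83 to 30.9 ± 5.78 CPM (log2 fold change 1.72, SE 0.292, adjusted p = 0.00935 by edgeR) and was called in each fit that left out 1 liver. Rbl1, encoding the RB relative p107, went from 1.73 to 5.17 CPM (1.62, SE 0.379, adjusted p = 0.0265 by edgeR), and lost its call without any 1 liver other than WT replicate 1.

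Proliferation genes, which p21 and the INK4 inhibitors act to restrain, had a median log2 fold change of 1.16 over 19 tested genes. The log2 fold change was above 0 for 17 of them, and edgeR called 5 higher, beside 8.6% of all genes tested. None was called lower by edgeR, DESeq2 or limma-voom, and 0 were lower at an unadjusted p under 0.05. Bub1, of the spindle checkpoint, had a log2 fold change of 2.73 (adjusted p = 0.0340 by edgeR), Ccnb1, encoding mitotic cyclin B1, of 2.70 (0.0331), and Top2a, encoding topoisomerase II alpha, of 2.64 (0.0421). All 3 were at low levels, and Bub1 had 2 to 4 counts in each WT library. The count of calls depended strongly on single livers: it rose to 12 when WT replicate 1 was left out, dropped to 1 when CgA-KO replicate 1 was left out and to 0 with each of the other livers. DESeq2 and limma-voom each called 9 higher, and over the whole table they called 1610 and 1253 genes higher. The summed level of the list was 74.0 to 98.9 CPM in the WT livers and 107 to 166 CPM in the CgA-KO livers.

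In the list of other lamina and chromatin genes none of 11 was called by edgeR or limma-voom, while DESeq2 called 1 higher and 1 lower. At an unadjusted p under 0.05, 2 of the 11 differed. Over all genes DESeq2 called 18.8%, and 29.1% had an unadjusted p under 0.05. Lmnb2, the other B-type lamin, was at 9.36 ± 2.68 CPM in the WT livers and 5.15 ± 0.927 CPM in the CgA-KO livers (log2 fold change -0.86, adjusted p = 0.0763 by edgeR). Its groups did not overlap, and its sign was opposite to that of Lmnb1. Hmgb2, a chromatin protein that is more abundant in dividing cells, had a log2 fold change of 1.38 (adjusted p = 0.0502 by edgeR).

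The senescence-associated secretory phenotype is the set of cytokines, proteases and growth factors that senescent cells release. Of the 28 genes on the list 23 were tested. edgeR and limma-voom each called 7 higher and none lower, and edgeR called 8.6% of all genes tested higher. DESeq2 called 13 higher and 1 lower, beside 18.8% of all genes in either direction. Over the whole table DESeq2 called 1610 genes higher and 991 lower. At an unadjusted p under 0.05, 1 of the 23 was lower. The median log2 fold change was 1.71. Ccl5, a chemokine that T and NK cells also make, had a log2 fold change of 3.88 (adjusted p = 0.0376 by edgeR), but 69.0 CPM in CgA-KO replicate 2 against 8.03 and 12.2 in the other CgA-KO livers. Without CgA-KO replicate 2 its log2 fold change was 2.31, and it lost the call on omission of any liver but CgA-KO replicate 3. Cxcl10, an interferon-induced chemokine, went from 1.66 to 11.2 CPM (2.76, adjusted p = 0.00581 by edgeR), and Il1b, encoding interleukin 1 beta, from 2.57 to 13.5 CPM (2.41, adjusted p = 0.0149 by edgeR; not called without CgA-KO replicate 1). The summed level of the list overlapped, at 309 to 465 CPM in the WT livers and 403 to 564 CPM in the CgA-KO livers. The count of 7 calls was 4 without WT replicate 3 and 3 without CgA-KO replicate 1. Il6, Csf2, Mmp3, Areg and Timp1 of the same list were too low to test.

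Markers of other liver cell types moved with genotype beside these genes. The summed Kupffer cell list was 105 to 244 CPM in the WT livers and 1137 to 1545 CPM in the CgA-KO livers, with 7 of 8 genes called higher, and its most abundant gene, Clec4f, went from 52.0 to 403 CPM (adjusted p = 0.0122 by edgeR; not called without WT replicate 2 or 3). The T and NK cell list was 3.70 to 14.3 CPM in the WT livers and 47.4 to 107 CPM in the CgA-KO livers, with 5 of 8 genes called, its most abundant gene Cd4 not among them (adjusted p = 0.0983 by edgeR). The neutrophil list was 6.61 to 12.2 and 46.3 to 339 CPM, with 2 of 4 tested genes called, S100a9 with them. Mpo of this list was not tested. It had 0 counts in every WT liver and 0, 2107 and 15 counts in CgA-KO replicates 1 to 3, so nearly all its counts came from replicate 2. The monocyte and dendritic cell list was 6.42 to 9.76 and 21.7 to 127 CPM, with 3 of 7 called, and Ly6c2 at an edgeR adjusted p of 0.0715. CgA-KO replicate 2 had the highest sum of each of these 4 lists, but not of each gene. Its Kupffer cell sum was 1545 CPM, close to 1508 CPM in CgA-KO replicate 1. Among Kupffer cell genes, Cd5l, Marco, C1qa and C1qb were highest in replicate 2 of the CgA-KO livers, and Vsig4 lay between. Clec4f, Timd4 and Adgre1 were lowest there, as were Cd4, Gzma and Csf3r of the other lists. CgA-KO replicate 2 was also at an extreme of the CgA-KO livers for each of the 10 genes. It was the highest of them for 5 (Cdkn2a, Cdkn2b, Cdkn2c, Trp53 and Lmnb1) and the lowest for 5 (Cdkn1a, Mdm2, Ccng1, Gadd45a and Gdf15). For any gene 2 of 3 livers are extremes, and the share over all genes was not computed. Some gaps were small, as for Cdkn2c at 3.90 CPM in this liver and 3.85 in CgA-KO replicate 3.

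The stellate cell sums did not overlap either, at 142 to 195 CPM in the WT livers and 260 to 403 CPM in the CgA-KO livers, with 2 of 7 called and Dcn going from 108 to 216 CPM (adjusted p = 0.0436 by edgeR). The sums overlapped between genotypes for B and plasma cells (20.8 to 118 and 39.2 to 116 CPM; led by Ighm), sinusoidal endothelium (109 to 137 and 111 to 151 CPM; led by Stab2), bile duct cells (19.1 to 30.5 and 18.6 to 73.4 CPM; led by Spp1) and hepatocytes (52082 to 89054 and 41539 to 73090 CPM; led by Alb). Endothelial markers had 1 gene called higher and 1 called lower, and the other 3 of these lists had none by edgeR. At an unadjusted p under 0.05, 0 of 7 B and plasma cell genes, 1 of 5 bile duct genes and 2 of 7 hepatocyte genes differed, beside 29.1% of all genes tested. DESeq2 called 0, 0 and 2 of them, beside 18.8% of all genes, and limma-voom 0, 0 and 1.

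**Figure D4:**
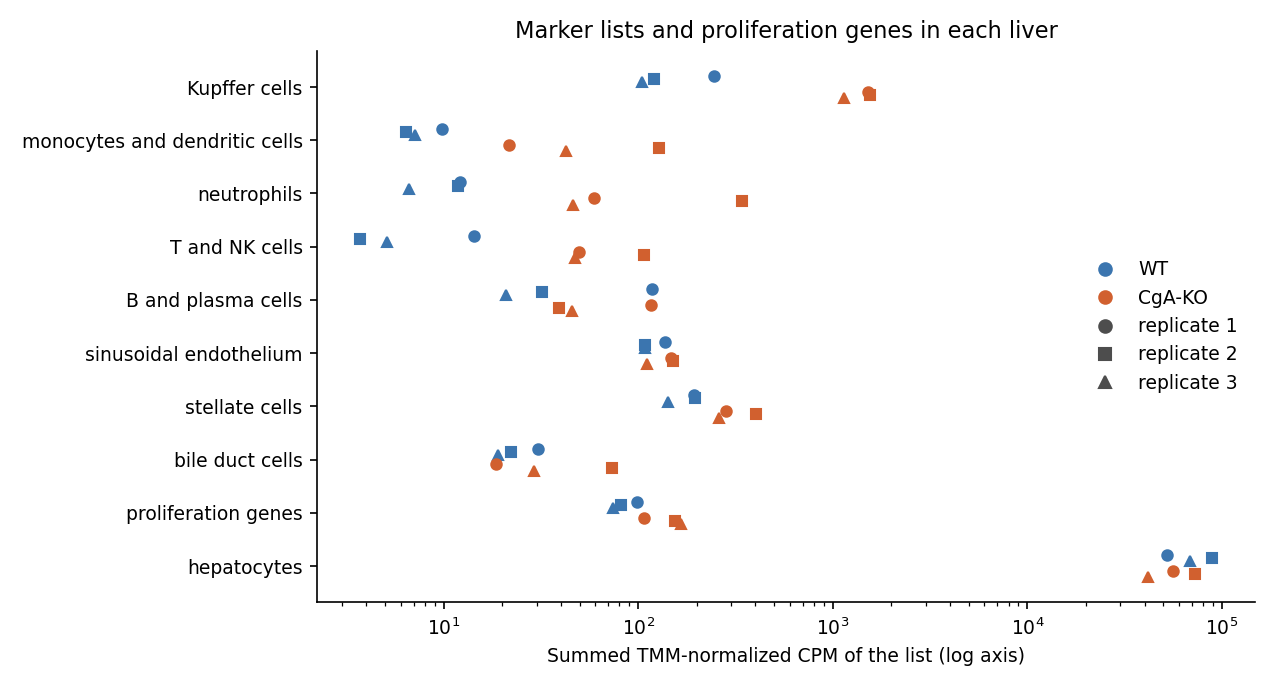
Summed TMM-normalized CPM of each marker list and of the proliferation genes (log horizontal axis) in each liver, coloured by genotype and shaped by replicate number. The Kupffer cell sums lie at 105 to 244 CPM in the WT livers and 1137 to 1545 CPM in the CgA-KO livers, while the hepatocyte sums of the genotypes overlap.

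Set against the Kupffer cell sum, a comparison chosen after the values were seen, Cdkn1a amounted to 2.24, 0.992 and 3.07 CPM per 100 CPM of Kupffer cell markers in WT and 2.70, 1.5 and 3.47 in CgA-KO. These ratios overlapped, the ratio of their means was 1.22, and the exact permutation p was 0.6. Cdkn1a per marker sum overlapped between genotypes for 4 of the 9 lists (Kupffer cells, monocytes and dendritic cells, neutrophils, and T and NK cells) and was higher in CgA-KO for the other 5. Lmnb1 per marker sum was lower in CgA-KO for 4 lists, overlapped for 3 and was higher for 2. The part of these cells in the levels of Cdkn1a, Lmnb1 and the listed genes was not tested, since each liver gives 1 bulk value.

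The genes whose pattern over the 6 livers was closest to that of Cdkn1a were sought among 9935 genes, by the root mean square difference of log2 CPM after centring each gene. They were Timd4 (0.313 log2 units), Fyb (0.336), Adgre1 (0.378), Dock10 (0.387) and Slc7a8 (0.392), with log2 fold changes of 3.57, 2.92, 3.61, 2.69 and 3.16. Timd4 encodes a phosphatidylserine receptor and Adgre1 the macrophage antigen F4/80, and both are on the Kupffer cell list. Fyb encodes an adaptor of haematopoietic cells. As for Cdkn1a, WT replicate 1 was the highest WT liver and CgA-KO replicate 2 the lowest CgA-KO liver for each of the 5. The genes were chosen by closeness over these same livers, so the shared order largely follows from the choice.

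For Trp53 the closest genes were Tln1 (0.0582), Klf7 (0.0943), Abca7 (0.0950), Sorbs3 (0.107) and Scamp2 (0.111), with log2 fold changes of 0.60, 0.77, 0.53, 0.54 and 0.75, none of them called by edgeR. Tln1 encodes talin, which links integrins to actin. With 6 points and differences of this size a close match is a description of these livers.

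**Figure D5:**
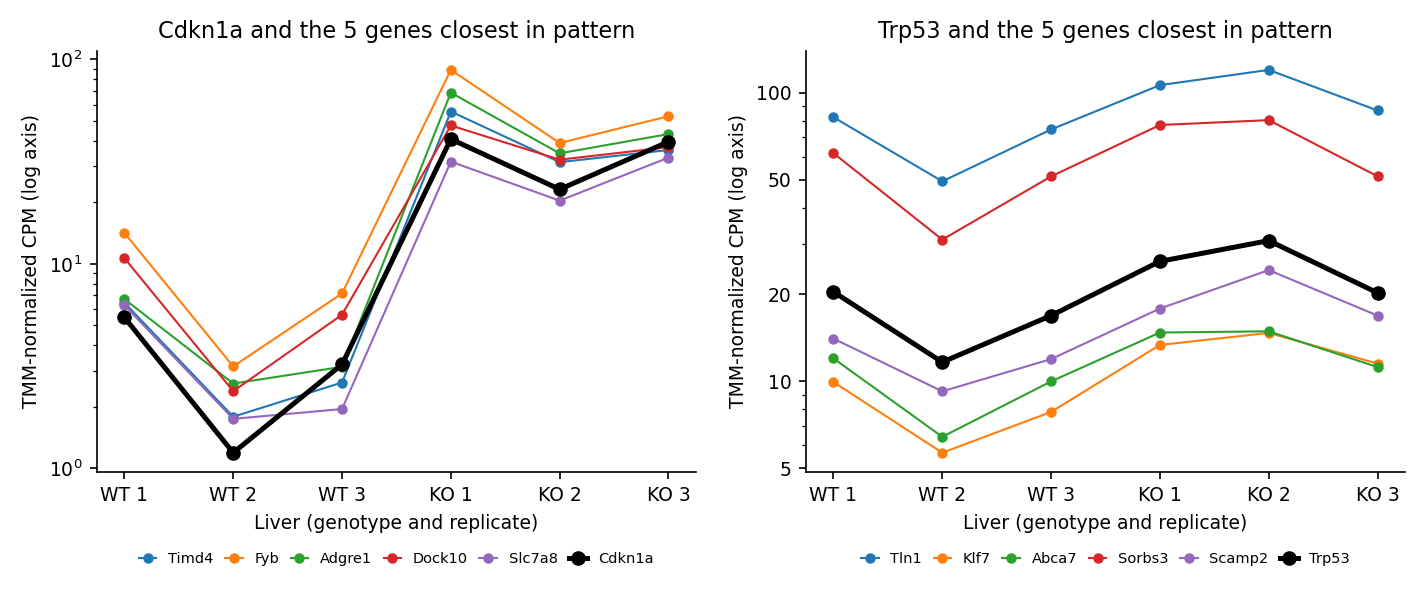
TMM-normalized CPM (log vertical axis) in each of the 6 livers for Cdkn1a (left) and Trp53 (right), in black, and the 5 genes closest to each in pattern, in colour. The genes close to Cdkn1a, led by Timd4 at 0.313 log2 units, have all CgA-KO livers above all WT livers, which largely follows from their choice by pattern. Those close to Trp53 have log2 fold changes of 0.53 to 0.77.

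The hour at which livers were collected is not given in the sources used here, and genes of the circadian clock, chosen after the values were seen, differed between genotypes. Arntl, the core clock activator BMAL1, was at 0.814 ± 0.383 CPM in the WT livers and 16.8 ± 2.43 CPM in the CgA-KO livers (SD, n = 3; adjusted p = 0.00164 by edgeR). Dbp, a clock output gene, was at 126 ± 34.8 and 18 ± 16.2 CPM (adjusted p = 0.0165 by edgeR). Nr1d1, a clock repressor, overlapped at 63.6 and 73.6 CPM (adjusted p = 0.625 by edgeR). Cdkn1a is known as a clock-regulated gene in mouse liver, and the part of clock phase in its level was not tested.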

How the data were processed

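Poly(A)-selected liver RNA was sequenced in paired ends, from 3 WT mice and 3 CgA-KO mice. The authors quantified transcripts with Salmon 1.4.0 against GRCm38 and deposited a table of whole-number counts per gene, with no normalization; how transcripts were summed to genes and which strand setting was used are not given in the sources used here. Groups came from the labels, 1 column per sample.

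Counts were filtered with filterByExpr (minimum count 10), scaled by TMM and tested with edgeR 4.0.16 (quasi-likelihood, R 4.3.3) without a block, with Benjamini-Hochberg adjustment over 13867 genes and calls at adjusted p under 0.05. SE was approximated from the log2 fold change and its F statistic, as the size of the former over the root of the latter. Single values were compared by exact two-sided permutation tests. DESeq2 1.42.0, limma-voom 3.58.1, other scalings, filters, a replicate block and leaving out each liver were alternatives. The fits were tested on simulated data. Gene positions are from GENCODE and promoters from RefSeq (GRCm38.p6). Figures used matplotlib 3.10.9.

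The 10 genes and all lists were chosen with earlier results of these data known. Named were all 10 genes, in each pathway list up to 3 called genes per direction with the largest change (or the 2 smallest p where none was called), the most abundant gene of each marker list, and the 5 genes closest in pattern to Cdkn1a and Trp53 among genes of at least 5 CPM. Apaf1, Tap1, Mpo, Chga, E230016M11Rik, the clock genes and the untested secretory genes were named beyond this rule, after their values were seen. H2afx and H2afz were read under their current symbols, and Trac had no row of that name.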

Additional observations from a re-analysis of the deposited data

How the results depend on the processing

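With 3 livers per genotype, calls were sensitive to single livers and to the tool. The genes called over the whole table numbered 1726 in the reported fit, 2601 with DESeq2, 360 at an adjusted p under 0.01, and 394 (without WT replicate 3) to 2126 (without WT replicate 1) when 1 liver was left out. Of the 10 genes 2 were called in the reported fit, 1 with a replicate block, 1 at an adjusted p under 0.01, and 0 to 2 when 1 liver was left out. The number of tested genes among them whose groups did not overlap was 2 with TMM factors. It was 3 with library size alone and 3 with upper-quartile factors. Cdkn1a had log2 fold changes of 3.01 to 3.99 and Lmnb1 of 1.06 to 1.58 over 14 settings, with adjusted p of 3.98e-11 to 0.0523 and 0.00377 to 0.0941.

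The sign turned for genes that were not called. Cdkn2c was 0.22 by library size alone, 0.0025 with upper-quartile factors, and -0.27 to 0.20 when 1 liver was left out (0.10 without WT replicate 1, 0.06 without WT replicate 2, 0.20 without CgA-KO replicate 1). Mdm2 was -0.0039 without CgA-KO replicate 3 and up to 0.31 without another liver, and Ccng1 ran up to 0.30 but was -0.14 without WT replicate 3 and -0.22 without CgA-KO replicate 3. Ighm reached 1.27 without WT replicate 1 but was -0.11 without WT replicate 3 and -0.18 without CgA-KO replicate 1, Spp1 was 1.27 without CgA-KO replicate 1 but -0.091 without replicate 2 of that genotype, and Alb was 0.082 by library size alone, -0.40 without CgA-KO replicate 2 and 0.0053 on omission of the third. The cause of these changes was not tested.

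The labels give both genotypes the same replicate numbers. Deviations of same-numbered livers correlated at 0.199, 0.0127 and -0.0659, and not every liver correlated best with its own number. With so few livers per genotype, these correlations cannot decide whether the numbers pair the livers. The reported fit used no block, and a fit with a replicate block was an alternative. With the replicate block Lmnb1 had a log2 fold change of 1.28 (adjusted p = 0.0549 by edgeR) and Cdkn1a of 3.57 (adjusted p = 0.00485 by edgeR), and the calls over all genes were 1093 higher and 405 lower. The block changed no other call among the 10 genes, and lowered the calls among proliferation genes from 5 to 0. Cdkn2a and Cdkn2b had 113 and 31 counts in all, and without the filter on low counts the SE of their log2 fold changes was 1.44 and 0.828.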
